A study of Mus musculus with 4 samples.

Results

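Krüppel-like factors were followed as a family in NOTCH1-driven mammary tumor cells before and after the oncogene was switched off. The family members examined were Klf2, Klf3, Klf4, Klf5, Klf6, Klf7, Klf9, Klf10, Klf11 and Klf13, which are 10 of the 18193 genes that the arrays measure with probe sets of a single gene symbol. They were chosen by name, with earlier results of these data known. All 34 of their probe sets were used, and the probe set with the highest mean log2 signal of each gene is called its lead probe set. The 2 cell lines, 8534 and 8542, were established from primary mammary tumors of female MMTV-tTA/TOP-ICN1 mice of FVB/N;B6 background, and how many animals or clones stand behind a line is not given in the labels. In both lines the MMTV promoter drives the tetracycline transactivator, which turns on human ICN1, the constitutively active intracellular part of NOTCH1. Untreated cultures keep ICN1 on, and cultures given 2 µg/ml doxycycline for 24 hours have it off. Each line gave 1 untreated and 1 treated array, so that n = 2 lines throughout, and all 4 arrays carry both transgenes. A line without the transgene was not analysed here, and loss of ICN1 and any effect of doxycycline itself cannot be told apart.

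Krüppel-like factors are transcription factors that share C-terminal zinc fingers and bind GC-rich and CACCC sequences in promoters and enhancers. Outside the zinc fingers they differ. Klf2, Klf4, Klf5, Klf6 and Klf7 carry activation domains, Klf3 recruits the corepressor CtBP, and Klf9, Klf10, Klf11 and Klf13 bind the corepressor Sin3a. In epithelia Klf4 is known as a brake on division and Klf5 as a factor of dividing progenitors, and Klf10 and Klf11 were named for their early induction by TGF-β. Many of these genes respond quickly to serum, hormones and stress, and their transcripts are short-lived.

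Signals are MAS5 values in arbitrary units as processed by the authors, and scaling to a common trimmed mean was inferred from the values. The 4 arrays were alike in scale (trimmed mean 97.7 to 102 units, median probe set 29.1 to 30.5 units) and in the 3' to 5' log2 difference of β-actin (0.25 to 0.30). All 6 genes used to check the labels were lower with doxycycline in both lines. Limma called 5 of them (Nrarp, Heyl, Hey1, Dtx1, Myc), and Hes1 passed only at an unadjusted p under 0.05. The luminal markers Krt8, Krt18, Krt19, Epcam, Cdh1, Cldn3 and Cldn7 lay between 1247 and 8044 units on every array. The leukocyte list peaked at 123 units and Ptprc, its defining marker, lay between 6.08 and 7.20 units. The endothelial and fibroblast lists peaked at 130 and 406 units. The summed signal of the basal markers differed between the lines. It was 6065 and 9571 units in untreated and treated 8534 cells but 266 and 318 units in 8542 cells. Single basal markers ranged from 2.34 to 6588 units, so that the brightest weigh most in this sum. These are bulk RNA samples, so that more cells expressing a gene and more RNA per cell cannot be told apart.

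Promoters of 8 of the 10 genes are in the RefSeq promoter table (build GRCm38.p6), each running from 250 bases before to 50 bases after the start site. Those of Klf3 and Klf9 are shown because both genes rose and have an entry, and that of Klf13 because its lead probe set hardly moved. Capitals mark every GGGCGG (the GC box of the SP and KLF proteins) and every CACCC, on either strand. The Klf3 sequence lies at chr5:64803271-64803570 on the plus strand, that of Klf9 at chr19:23140976-23141275 on the plus strand, and that of Klf13 at chr7:63938866-63939165 on the minus strand.
Klf3: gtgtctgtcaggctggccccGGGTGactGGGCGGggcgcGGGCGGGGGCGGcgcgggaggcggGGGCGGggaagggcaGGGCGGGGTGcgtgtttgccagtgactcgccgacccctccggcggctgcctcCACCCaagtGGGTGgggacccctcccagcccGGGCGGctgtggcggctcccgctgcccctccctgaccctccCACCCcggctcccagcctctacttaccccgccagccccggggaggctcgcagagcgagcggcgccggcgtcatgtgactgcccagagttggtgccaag
Klf9: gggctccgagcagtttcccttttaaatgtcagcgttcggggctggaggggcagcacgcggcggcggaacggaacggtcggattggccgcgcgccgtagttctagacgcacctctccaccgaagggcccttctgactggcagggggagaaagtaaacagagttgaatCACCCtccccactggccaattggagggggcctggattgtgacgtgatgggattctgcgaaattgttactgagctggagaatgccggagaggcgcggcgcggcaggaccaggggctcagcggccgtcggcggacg
Klf13: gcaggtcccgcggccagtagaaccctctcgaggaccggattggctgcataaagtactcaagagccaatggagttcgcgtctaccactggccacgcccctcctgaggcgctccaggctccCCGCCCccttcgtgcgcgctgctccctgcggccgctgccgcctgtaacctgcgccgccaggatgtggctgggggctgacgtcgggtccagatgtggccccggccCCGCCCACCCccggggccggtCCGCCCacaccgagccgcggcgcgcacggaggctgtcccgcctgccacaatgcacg

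The Klf3 window holds 6 GC boxes and 5 CACCC matches, 1 of which overlaps a GC box. The Klf9 window holds no GC box and 1 CACCC match, and the Klf13 window 3 GC boxes and 1 overlapping CACCC match. At least 1 GC box was present in 7 of 8 Klf promoters, whereas 35.7% of all 32851 promoters in the table and 56.6% of those of tested genes have one. CACCC was present in 5 of 8, against 57.5% of all promoters and 63.8% of those of tested genes. GTGGGAA, a core sequence bound by the NOTCH effector RBPJ, was in none of the 8 windows and in 6.38% of all. The GC content of the Klf windows ran from 58.3% to 77.7%, and the median over all promoters was 52.7%. These are matches of letters in short windows and describe the sequence only.

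After doxycycline 4 Krüppel-like factors rose and most of the others had higher values. Klf3, Klf5, Klf9 and Klf10 rose in limma at an adjusted p under 0.05, and no member fell. This is 4 of 10 genes higher, and over all 15070 tested genes the share called higher was 4.76% and the share called lower 6.95%. At an unadjusted p under 0.05, 7 members were higher and 0 lower. At that threshold 3555 of all 33778 tested probe sets were higher and 4087 lower. The lead probe set was higher on the treated array of both lines in 9 of 10 genes (34.2% of all tested genes), and both treated values lay above both untreated values in 6 of 10 (21.8% of all tested genes). The median log2 fold change of the members was 0.70 for line 8534 and 0.55 for line 8542, whereas the median of all tested genes was 0.011 and 0.00014. The changes were modest in size. No lead probe set changed by over 2-fold in each line, the criterion in the methods, which 2.33% of tested genes passed upward and 4.18% downward. At 1.5-fold in both lines the 4 called genes passed (6.42% of tested genes), and in a single line Klf4 passed 2-fold upward in line 8534 (6.63%) and Klf3 and Klf5 in line 8542 (7.29%). The 4 calls rest on the moderated paired model: with no intensity trend their limma adjusted p lay between 0.253 and 0.289, and with no replicate block between 0.104 and 0.383. With any 1 of the 4 arrays left out, where the block could not be fitted, none of the 4 was called.

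**Figure D1:**
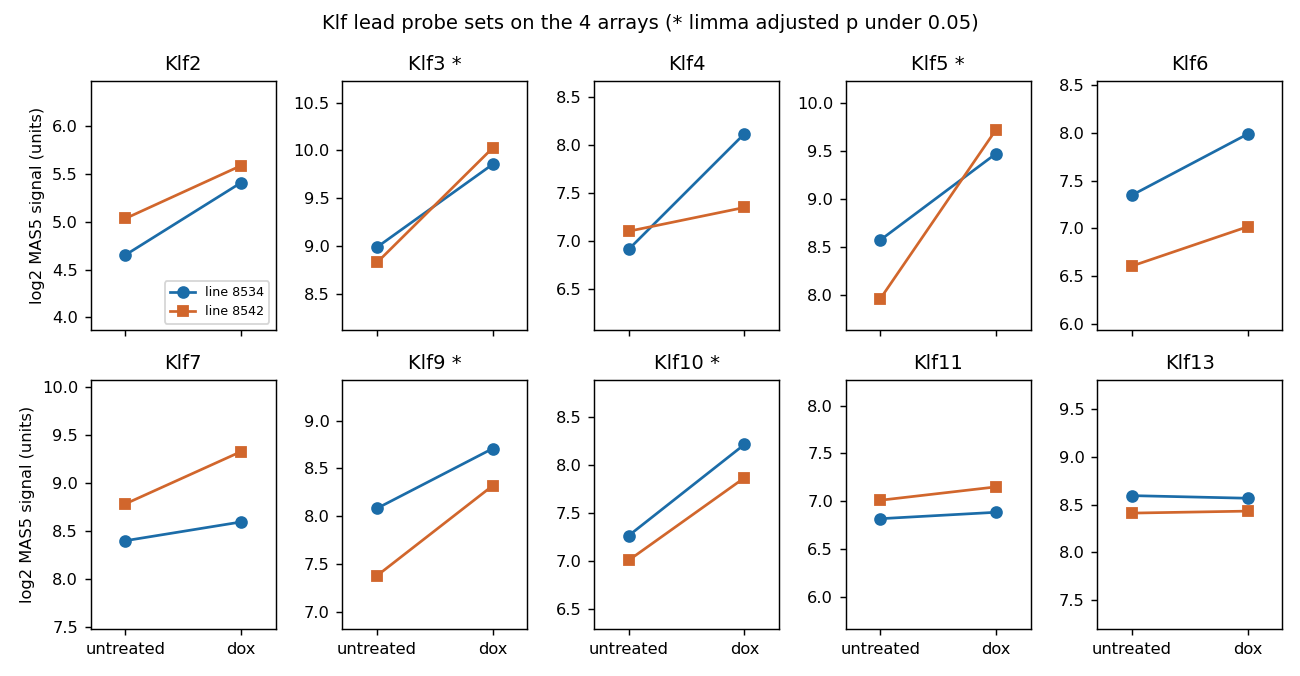
Log2 MAS5 signal of the lead probe set of each Klf gene on arrays without and with doxycycline (dox), 1 point per array, with lines joining the arrays of 1 cell line; every panel spans the same range of log2 units and an asterisk marks a limma adjusted p under 0.05. Klf3, Klf5, Klf9 and Klf10 rose, the treated 8534 array stands apart for Klf4, and Klf11 and Klf13 stayed nearly level.

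Among the factors with activation domains, Klf5 was the one called by limma. Its lead probe set (1451021_a_at) went from 381 to 712 units (line 8534) and, in 8542 cells, from 249 to 848. Both treated values lay well above both untreated ones, and the gap was wider in line 8542. Klf5 thus rose 1.87-fold and 3.40-fold, on average by 1.33 ± 0.61 in log2 (SD over n = 2 lines, limma adjusted p = 0.00836). Its other probe sets were not called. The signal of 1451739_at was 1.62-fold and 1.64-fold higher (limma adjusted p = 0.0845), and that of the dim 1430255_at, at 9.05 to 12.7 units, changed by -0.49 and -0.13 on the log2 scale. Averaged over its 3 probe sets, Klf5 changed by 0.58 and did not pass (limma adjusted p = 0.17).

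Klf4, which restrains division in many epithelia and is also a reprogramming factor, differed in size of change between the lines. Its lead probe set (1417394_at) went from 121 to 278 units (line 8534) and, in 8542 cells, from 137 to 163. The treated 8534 array stood apart from the other 3, which lay close together. These are 2.31-fold and 1.19-fold differences, on average 0.73 ± 0.68 in log2, which did not pass (limma adjusted p = 0.122). The other probe set (1417395_at), designed from the same source sequence, gave 2.05-fold and 1.25-fold. Whether the response itself differs by line has no test here, because 1 array per line and condition leaves no residual spread for it.

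Klf6, a stress-responsive factor, had 5 probe sets, and each was higher on the treated array in both lines. The lead (1433508_at) was at 163 and 254 units in line 8534 and at 97.6 and 130 units in line 8542, so that the untreated 8534 value exceeded the treated 8542 value and the groups overlapped. Its mean log2 fold change was 0.52 ± 0.16 (limma adjusted p = 0.116). Their mean log2 fold changes ran from 0.46 to 0.64, and limma called none of them. Of these, 1447448_s_at and 1459718_x_at come from a common source sequence, and by their suffixes may also bind transcripts of other genes.

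Klf7, a factor best known from neurons, was higher in both lines on all 4 of its probe sets, by mean log2 fold changes of 0.16 to 0.62. The lead (1449439_at) was at 337 and 386 units in line 8534 and at 440 and 643 units in line 8542. On this probe set the untreated 8542 value lay above the treated 8534 value, so that the groups overlapped, and the change of 0.37 ± 0.25 did not pass (limma adjusted p = 0.18). The closest to the threshold was 1419354_at at 0.62 ± 0.20 (limma adjusted p = 0.054). All 4 probe sets were designed from 1 source sequence.

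Klf2, which is prominent in endothelium and resting T cells, was measured by 1 probe set (1448890_at). It was at 25.2 and 42.5 units in line 8534 and at 32.8 and 48.1 units in line 8542. Both treated values were above both untreated values. The mean log2 fold change of 0.65 ± 0.14 did not pass (limma adjusted p = 0.24), with a 95% interval of -0.03 to 1.34.

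Klf3, the member that works through CtBP, rose on several probe sets. The lead (1454666_at) went from 509 to 927 units (line 8534) and, in 8542 cells, from 455 to 1044. The untreated values were close to each other and far below the treated ones. The rise was 1.82-fold and 2.29-fold, on average 1.03 ± 0.23 in log2 (SD over n = 2 lines, limma adjusted p = 0.00441). Of the 6 tested probe sets of Klf3, 3 were called, and all 7 were higher in both lines. The others called were 1429360_at (1.85-fold and 2.30-fold) and 1421604_a_at (1.89-fold and 3.10-fold). At the other extreme 1431630_a_at changed by 0.14 ± 0.08 (limma adjusted p = 0.618). The probe set under the expression filter, 1458487_at, had signals of 3.44 to 23.7 units.

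Of the Sin3a-binding members Klf9 and Klf10 rose, and Klf11 and Klf13 did not pass the test. Differences between the members were not tested. Klf10 (1416029_at), the TGF-β-inducible early gene, was at 154 and 298 units in line 8534 and at 129 and 234 units in line 8542, with no overlap between untreated and treated values. It rose 1.93-fold and 1.82-fold, on average by 0.91 ± 0.06 in log2 (SD over n = 2 lines, limma adjusted p = 0.0129). Among the 4 called genes the lines differed least for Klf10. Its relative Klf11 (1437241_at) was at 113 and 118 units in line 8534 and at 129 and 142.1 units in line 8542. Its groups overlapped, and the change was 0.10 ± 0.05 with a 95% interval of -0.31 to 0.51 (limma adjusted p = 0.798).

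Klf9, which can act with the progesterone receptor, rose on its lead probe set (1428288_at) from 271 to 418 units (line 8534) and, in 8542 cells, from 166 to 320. Untreated 8534 cells came closest to the treated values. The rise was 1.54-fold and 1.92-fold, on average 0.78 ± 0.22 in log2 (SD over n = 2 lines, limma adjusted p = 0.0212). A further probe set, 1456341_a_at, rose 1.75-fold and 1.90-fold (limma adjusted p = 0.0175). Of the 7 probe sets of Klf9, 5 were higher in both lines and 2 moved in opposite directions in the lines, 1422264_s_at and 1452723_at. The latter shares its source sequence with the lead. With its probe sets averaged Klf9 changed by 0.48 and did not pass (limma adjusted p = 0.218).

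Klf13, known as a regulator of Ccl5 in T cells, was level on its lead probe set (1436316_at). This was at 386 and 379 units in line 8534 and at 340 and 345 units in line 8542, a log2 change of -0.0033 ± 0.034 with a 95% interval of -0.32 to 0.31 (limma adjusted p = 0.993). Its probe set 1432543_a_at was at 304 and 314 units in line 8534 and at 199 and 336 units in line 8542, where 3 arrays were alike and the untreated 8542 array was lower (limma adjusted p = 0.281).

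**Figure D2:**
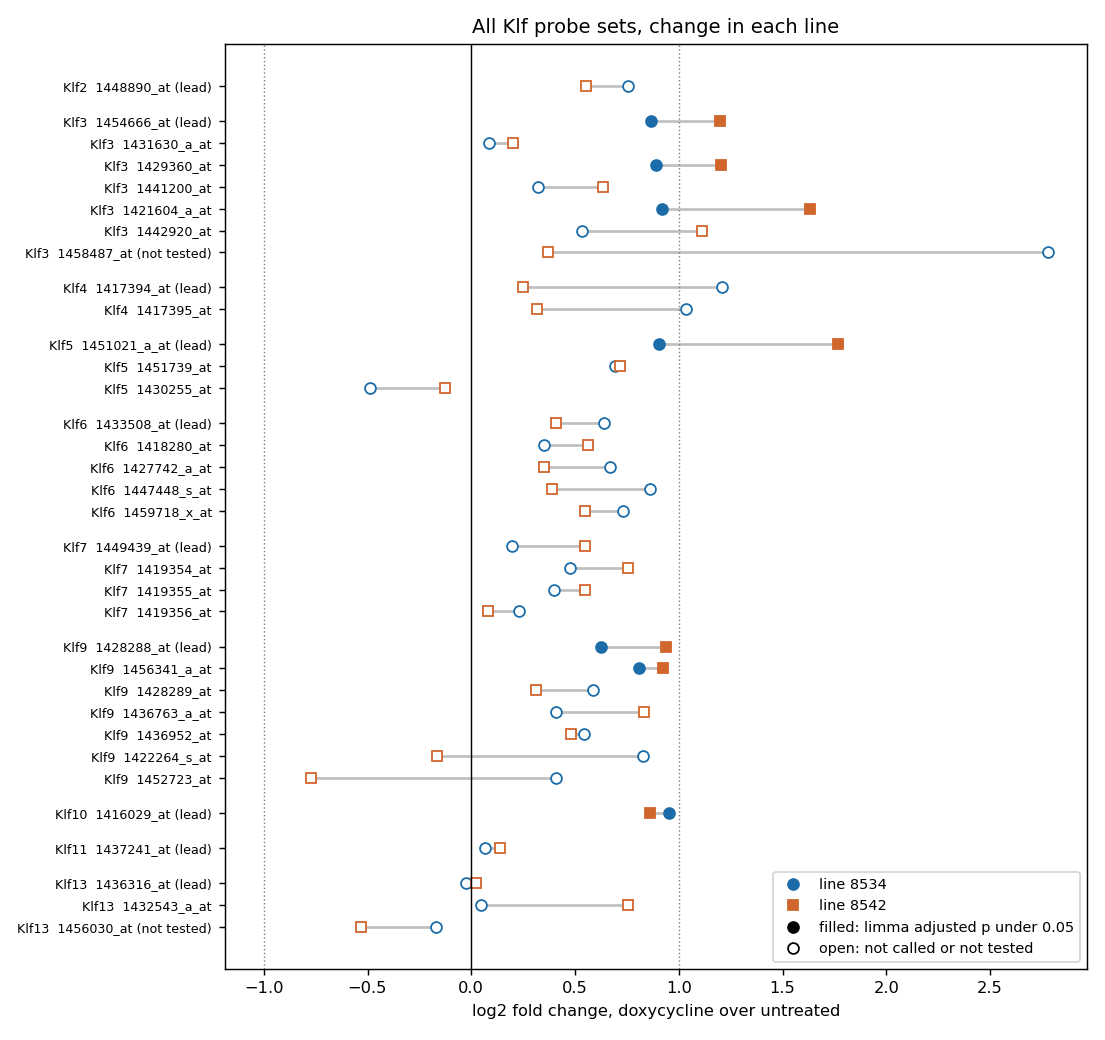
Log2 fold change (doxycycline over untreated, 24 hours) on all 34 Klf probe sets, with a circle for line 8534 and a square for line 8542; dotted lines mark a 2-fold change. Filled points mark a limma adjusted p under 0.05, as for 3 probe sets of Klf3 and 2 of Klf9, and the points left of 0 belong to Klf5, Klf9 and Klf13.

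Taking every probe set of the family, 32 of 34 passed the expression filter (a mean log2 value of at least 2.94, the 25th percentile). Of these 32, 28 were higher in both lines and 1 lower in both, and over all 33778 tested probe sets 33.6% were higher and 32.2% lower in both lines. Limma called 7 higher (3.69% of all tested probe sets) and 0 lower (5.54%). At an unadjusted p under 0.05 there were 18 higher and 0 lower, against 3555 and 4087 of all 33778 tested probe sets. Both treated values lay above both untreated values on 19 (21.7% of all tested probe sets). Probe sets of 1 gene were read on the same arrays, several pairs share a source sequence, and they are not replicates of the treatment.

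**Figure D3:**
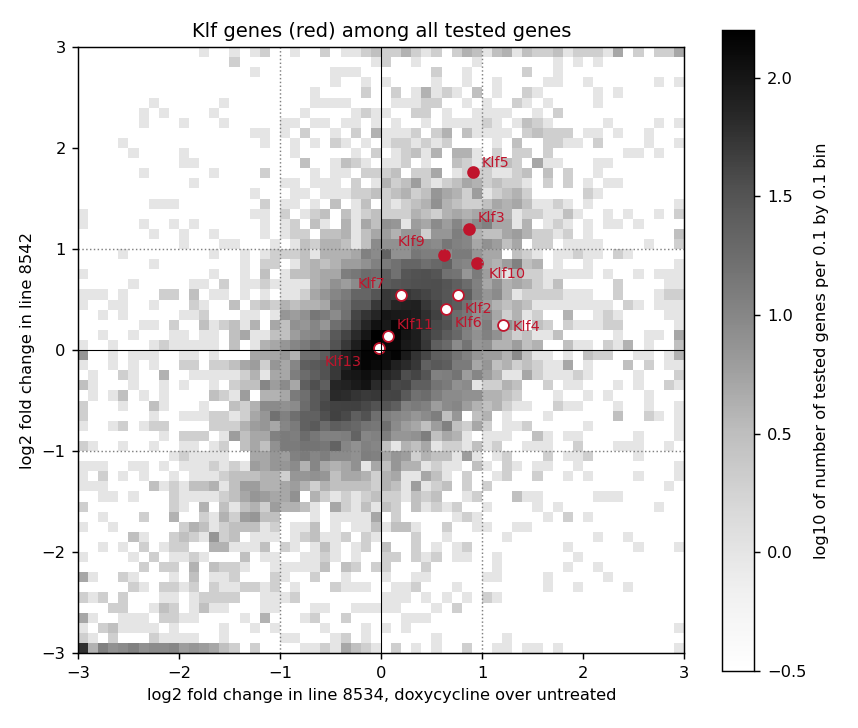
Log2 fold change in line 8534 (x axis) against line 8542 (y axis) for the 10 Klf lead probe sets in red, filled where limma called them, over all 15070 tested genes in grey, darker where more genes lie; changes beyond 3 are gathered in the outermost bins and dotted lines mark a 2-fold change. All Klf points except Klf13 lie in the upper right quadrant, with Klf5 at 0.90 and 1.77 and Klf4 at 1.21 and 0.25.

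The lines differed from each other in Klf6. Over both conditions its lead probe set was 1.81-fold lower in line 8542 than in line 8534, with log2 differences of -0.74 between the untreated arrays and -0.97 between the treated arrays (limma adjusted p = 0.04). This was the only lead probe set called for the line term, against 3.28% of tested genes lower and 2.36% higher in line 8542. All 5 Klf6 probe sets were lower in line 8542, by 0.43 to 0.85 on the log2 scale. The call was lost with no expression filter (limma adjusted p = 0.066) and with quantile normalization (limma adjusted p = 0.0532). It was also lost over the mean of the probe sets (limma adjusted p = 0.189) and with no intensity trend (limma adjusted p = 0.383). With 1 array per line and condition it compares these cultures only. Summed, the basal markers were also lower in line 8542 (266 to 318 units) than in line 8534 (6065 to 9571 units). The summed fibroblast markers were lower as well, at 152 to 156 units in line 8542 and 638 to 938 units in line 8534. The part of either list in the Klf6 difference was not tested.

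Other members had smaller or less even line differences. Klf7 was higher in line 8542 on all 4 probe sets, by 0.29 to 0.70, and its lead did not pass (0.56; limma adjusted p = 0.0848). Klf9 was lower on its lead by 0.55 (limma adjusted p = 0.106). On 1422264_s_at the difference was -1.64 (limma adjusted p = 0.0486), and on 1436952_at it was 0.55 in the other direction. By its suffix 1422264_s_at may also bind transcripts of other genes. Klf5 was lower in untreated 8542 cells by 0.61 and higher in treated 8542 cells by 0.25, and Klf4 was higher by 0.19 and lower by 0.77. The Klf3 differences were -0.16 and 0.17.

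**Figure D4:**
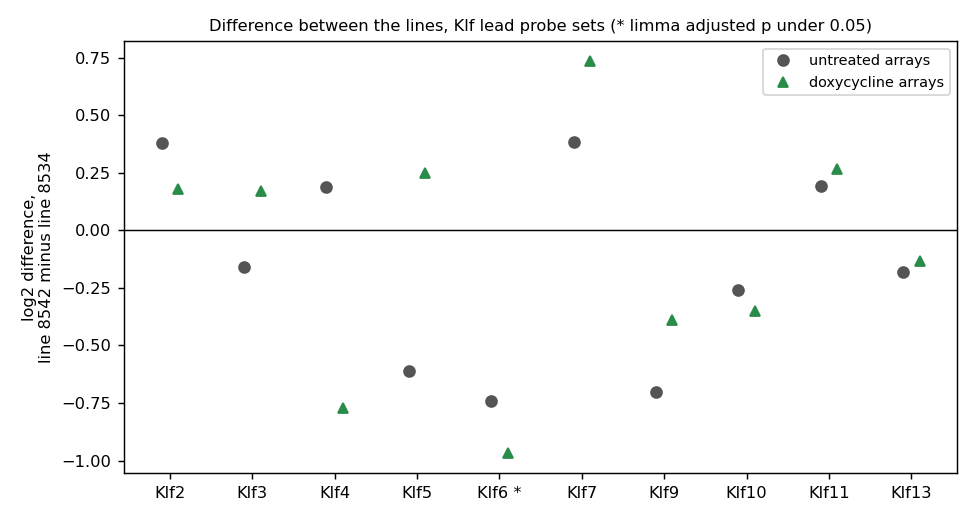
Log2 difference between the lines (8542 minus 8534) on the lead probe set of each Klf gene, with a circle for the untreated pair of arrays and a triangle for the treated pair; an asterisk marks a limma adjusted p under 0.05 for the line term. Klf6 lies at -0.74 and -0.97, and Klf3, Klf4 and Klf5 change sign between the conditions.

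Relatives and partners of the family were examined as lists, whose counts stand beside shares of 4.76% called higher and 6.95% called lower over all tested genes. Their unadjusted counts stand beside 3555 higher and 4087 lower of all 33778 tested probe sets. Of 13 other KLF and SP genes with a single-symbol probe set, 11 were tested and limma called 0 in either direction (without adjustment, 1 higher and 1 lower at p under 0.05). Their median log2 fold change was -0.11 in line 8534 and -0.22 in line 8542. Klf14, named after its values were seen, was 3.61-fold and 1.38-fold higher (limma adjusted p = 0.0723). Sp1 and Sp3, the general GC-box factors, were also named afterwards and had mean log2 fold changes of -0.29 ± 0.09 and -0.54 ± 0.08 (limma adjusted p = 0.228 and 0.256). All 13 cofactors, among them Ctbp1, Ctbp2, Sin3a and Sin3b, were tested and limma called 0 (without adjustment, 2 higher and 0 lower), with medians of 0.19 and 0.10.

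Of 10 enzymes that add or remove ubiquitin on KLF proteins, 1 rose and 0 fell. For a list of this size this is close to the 4.76% of all tested genes called higher. Without adjustment, 3 of the enzymes were higher and 0 lower at p under 0.05, beside 3555 and 4087 of all 33778 tested probe sets. The gene that rose was Fbxw7, a ubiquitin ligase subunit with Klf5 among its substrates, from 179 to 284 units (line 8534) and, in 8542 cells, from 181 to 275 (limma adjusted p = 0.0414). Of 16 upstream regulators tested, 1 rose and 1 fell, close to the 4.76% and 6.95% of all tested genes. Without adjustment 7 of them were higher and 3 lower at p under 0.05 (3555 and 4087 of all 33778 tested probe sets). Tgfbr2, a TGF-β receptor, rose 2.33-fold and 2.05-fold (limma adjusted p = 0.00592), whereas Tgfb1, the ligand, fell 1.90-fold and 1.87-fold (limma adjusted p = 0.00500). The medians of these lists were 0.12 and 0.39 for the enzymes and 0.18 and 0.21 for the regulators, in lines 8534 and 8542.

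Genes described elsewhere as KLF targets moved in both directions. Of 26 tested, 5 rose (against 4.76% of all tested genes), 7 fell (against 6.95%) and 14 did not pass, with a median of -0.11 in line 8534 and -0.18 in line 8542. The called genes Tgfb1, Atf3 and Krt19 are also on the regulator, immediate early and luminal lists, and each counts in both lists. The largest called changes were those of the chemokine Ccl5 and of the cell-cycle genes Birc5, Cdk1 and Ccnd1. Ccl5 went from 27.5 to 286 units (line 8534) and, in 8542 cells, from 3.55 to 171, where the untreated signal lay under the 20th percentile of all values (5.52 units). Birc5 fell 6.93-fold and 30.1-fold, Cdk1 5.94-fold and 14.8-fold, and Ccnd1 7.13-fold and 7.35-fold. Regulation by a KLF protein was not tested.

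The genes whose 4 array values ran closest to those of the called Klf genes were found by the root mean square difference of the log2 values, each centred on its own mean. Klf5 was closest to Lurap1l (0.031), Parp12 (0.037) and Mgmt (0.07), Klf3 to Dlgap4 (0.031), Smim22 (0.039) and Paqr7 (0.04), and Klf10 to Tgif1 (0.013), Vasp (0.031) and Actl6b (0.036). Of these, Mgmt, Paqr7 and Actl6b were not called (limma adjusted p = 0.165, 0.058 and 0.149). With n = 4 arrays such likeness is common: 59, 235 and 344 of 15069 other genes lay within 0.2 of Klf5, Klf3 and Klf10.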

How the data were processed

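The authors processed the raw Affymetrix data with MAS5 and deposited values for 45101 probe sets, taken here as log2 of the scaled signal. For the MAS5 version and target the sources used here give nothing. Base 2 was inferred, as it gives trimmed means near a usual target. Units were computed as 2 to the power of the log2 value.

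Of these probe sets 64 controls were left out. The probe annotation gives 1 gene symbol for 34945 of the other 45037, several for 932 and none for 9160. All 34 Klf probe sets have 1 symbol, and none was changed by the reference gene table. Treatment and line were the terms of a linear model in limma 3.58.1 (R 4.3.3), with eBayes and an intensity trend, on 33778 probe sets, those with a mean at or over the 25th percentile. Tests were two-sided, with Benjamini-Hochberg adjustment over all probe sets tested, and calls were made at an adjusted p under 0.05. The fit left 1 residual degree of freedom, to which moderation added 6.18. The pairing comes from the cell line, which both arrays of a pair share (r = 0.36 between their deviations from the condition means). The smallest p of an exact test with 2 lines is 0.5. The p values rest mostly on a variance shared over probe sets of like intensity, in which array noise is included. They do not measure the SD over 2 lines printed beside a change. For Klf5 that SD was 0.61 and the limma standard error 0.20, and for Klf10 0.06 and 0.15. The number of arrays limits the precision. The model was also run on simulated data with 200 changed probe sets, and the outcome is not given or used here.

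Every Klf gene was named. From each other list up to 4 called genes with the largest changes were named, and 3 genes by likeness for each of the 3 called Klf genes that changed most. The members and lists were chosen with earlier results of these data known. Motifs were counted on both strands. Alternatives were other filters, a floor, a pseudocount, other scalings, other moderation, no block, probe set means, other fold thresholds and arrays or lines left out. A zinc finger comparison was planned, and protein sequences were not used here.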

Additional observations from a re-analysis of the deposited data

Results flagged for a closer look

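The lines moved in opposite directions on 3 Klf probe sets, and these differences were not tested, since each line had 1 array per condition. For Klf9 the log2 fold change of line 8542 minus that of line 8534 was -0.99 on 1422264_s_at and -1.18 on 1452723_at, whose signals lay between 15.0 and 81.5 units. For the lead probe set of Klf13 (1436316_at) the lines had opposite signs with a difference of only 0.048.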

How the results depend on the processing

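Klf3, Klf5, Klf9 and Klf10 remained the 4 genes called higher with no filter, a filter at the 50th percentile, a floor, a pseudocount, quantile normalization, median centring and robust moderation. With the probe sets of each gene averaged 2 remained, Klf3 and Klf10. Without the intensity trend 0 Klf genes were called, as over the whole array (0 higher and 0 lower, 2444 and 2846 at an unadjusted p under 0.05). Without the replicate block, the pairing by line, 0 Klf genes were called (9 higher and 83 lower over the array). With any of the 4 arrays left out, which forces a fit without the block, 0 Klf genes were called, and 0 to 4 probe sets were higher and 0 to 248 lower over the array. Probe set means called 435 genes higher and 758 lower. No Klf gene was called lower under any alternative. At more than 1.5-fold in both lines 4 Klf genes were higher, the genes limma called, and in single lines 1 to 2 passed 2-fold (Klf4 in line 8534, Klf3 and Klf5 in line 8542). The call of Klf6 between lines became 0 with no filter, with quantile normalization, without the trend and over probe set means. Directions turned, with no call involved, for Klf13 under quantile normalization (0.029), over probe set means (0.015) and with arrays or lines left out (-0.094 to 0.088), for Klf11 with arrays or lines left out (-0.030 to 0.24), and for the line differences of Klf3 (-0.27) and Klf13 (0.17) over probe set means. With a whole line left out there was no test. The causes were not tested. The 2 Klf probe sets under the filter had signals of 3.44 to 23.7 units (1458487_at) and 3.51 to 8.55 units (1456030_at) and were not tested.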

Other observations

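Immediate early genes, which like several Klf genes respond quickly to serum and stress, were examined beside the family. Of 13 tested, 2 rose (against 4.76% of all tested genes) and 0 fell (against 6.95%). In limma without adjustment, 4 were higher and 3 lower at p under 0.05. At that threshold 3555 of all 33778 tested probe sets were higher and 4087 lower. The list median was 0.26 in line 8534 and -0.13 in line 8542. The genes that rose were Atf3, a stress-induced repressor (1.85-fold in each line; limma adjusted p = 0.0321), and Ier3, a survival factor (1.5-fold and 1.77-fold; limma adjusted p = 0.00868). Of 7 luminal markers 4 rose (against 4.76% of all tested genes) and 1 fell (against 6.95%). Cldn7 and Cldn3, claudins of tight junctions, rose 1.69-fold and 1.53-fold, and 1.5-fold and 1.44-fold, and Krt18 rose 1.38-fold and 1.54-fold. Krt19 fell 1.76-fold and 1.90-fold. Of the basal markers 0 of 6 tested were called by limma (without adjustment, 1 higher and 1 lower), of the leukocyte markers 0 of 4 (0 and 0), of the fibroblast markers 0 of 6 (0 and 1) and of the adipocyte markers 0 of 1 (0 and 0). Of 5 endothelial markers tested 1 fell, Tek (limma adjusted p = 0.0303), against 6.95% of all tested genes. Without adjustment 0 were higher and 1 lower. Signals of this list ran from 4.50 to 130 units.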
